A study of Mus musculus with 10 samples.

Results

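The 6 Serpina1 genes of the mouse (Serpina1a to Serpina1f, members of the alpha-1 antitrypsin family on chromosome 12) were followed through 10 kidneys of UM-HET3 male mice. They are 6 of the 43629 genes listed, taken by symbol. The locus was chosen by its measured values, because Serpina1d stood among the genes with the smallest p-values between rilmenidine and control kidneys, so every difference between these groups in a Serpina1 gene is given as a description, without a test. UM-HET3 is a genetically heterogeneous stock bred from several inbred strains. All mice were 4 months old. The 6 control mice ate a standard diet, and the 4 treated mice, whose controls were littermates, received rilmenidine, an imidazoline receptor agonist prescribed against high blood pressure, in the same diet (10 ppm, beginning at 3 months of age and lasting 1 month). Each kidney gave 1 library, with RNA captured at the 3′ end of the transcript, and the values are counts of reads per gene. The animals were said to be biological replicates, and their genotypes at this locus were not analysed here.

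Alpha-1 antitrypsin is a secreted serpin, a protein that inhibits serine proteases by offering an exposed loop as bait. The protease cuts the loop and is trapped in a covalent complex. Hepatocytes make most of the protein in plasma, where it restrains neutrophil elastase, and it passes the kidney filter to some degree and is taken up again by the proximal tubule. The human genome has a single such gene, while the mouse locus has been multiplied, and the copies differ most in the loop. Serpina1f is the divergent member and is known from the epididymis.

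On the mm10 assembly the 6 genes occupied 271 kb of the minus strand, chr12:103688044-103958975, in the order Serpina1f, Serpina1b, Serpina1d, Serpina1a, Serpina1c and Serpina1e. Serpina1d lay at chr12:103763594-103773592 and Serpina1f at chr12:103688044-103695529, at the low-coordinate end. Serpina1b was annotated from 103728156 to 103830373 and so spanned Serpina1d, although the exons of the 2 genes did not overlap. The stretch that codes for the exposed loop shows how the copies differ and lies close to the 3′ end, where the libraries captured RNA. For each gene, 24 codons beginning at the hinge of the loop, which was located by a short pattern of residues before it, are printed 5′ to 3′ on the minus strand, with the bases unlike Serpina1d in capitals. All were read from the GENCODE M21 transcripts, each within 1 exon and 170 to 180 bases before the end of its transcript.
Serpina1d, chr12:103763764-103763835: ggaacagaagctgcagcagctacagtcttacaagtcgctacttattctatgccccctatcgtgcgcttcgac
Serpina1c, chr12:103895096-103895167: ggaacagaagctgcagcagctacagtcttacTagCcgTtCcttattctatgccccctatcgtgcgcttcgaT
Serpina1a, chr12:103853759-103853830: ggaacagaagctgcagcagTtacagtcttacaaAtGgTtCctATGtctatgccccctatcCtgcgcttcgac
Serpina1b, chr12:103728326-103728397: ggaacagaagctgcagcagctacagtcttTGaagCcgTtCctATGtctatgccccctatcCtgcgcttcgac
Serpina1e, chr12:103947102-103947173: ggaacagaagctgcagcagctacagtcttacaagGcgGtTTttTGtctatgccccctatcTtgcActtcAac
Serpina1f, chr12:103689813-103689884: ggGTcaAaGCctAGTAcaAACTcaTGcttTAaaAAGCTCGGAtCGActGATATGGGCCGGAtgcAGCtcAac

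Within these 72 bases Serpina1c differed from Serpina1d at 5 bases, Serpina1a, Serpina1b and Serpina1e at 9 each, and Serpina1f at 46. The differences fell on codons that code for another residue in 4 codons of Serpina1c, 6 of Serpina1a, 7 each of Serpina1b and Serpina1e, and 23 of the 24 codons of Serpina1f. Over the whole reading frame Serpina1a to Serpina1e were 96.3% to 98.5% identical (10 pairs, median 96.6%), whereas Serpina1f was 56.5% to 57.6% identical to the other five.

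The sequence shared among the copies bears on which gene a read is counted for. Of the 251 windows of 50 bases in the last 300 bases of each transcript, 44.6% of those of Serpina1d also occurred, base for base, in a transcript of another gene. The share was 56.6% for Serpina1a, 37.8% for Serpina1b, 18.3% for Serpina1e and 15.9% for Serpina1c, and no window of Serpina1f was shared. With windows of 100 bases, the length of the sequencing reads, 18.4% of the windows of Serpina1a were shared and none of the other five. Mismatches were counted only against the other Serpina1 genes, pseudogenes near them and genes that share a window of 50 bases with a copy. Among these, a Serpina1d window of 100 bases differed from its closest match by 1 to 6 bases (median 5). A Serpina1f window differed by 39 to 57 (median 45). Near matches in all other genes were not searched. Counts of Serpina1d and of Serpina1a to Serpina1c and Serpina1e are therefore uncertain between copies, the more so as trimmed reads are shorter. For Serpina1f no such sharing was found in the stretch searched. Only 1 transcript per gene was cut into windows, and for Serpina1f, with 3 annotated, the ends of the others were not searched. How reads that matched several genes were treated is not given in the sources used here. Unprocessed pseudogenes lie between the copies, and one of them, Gm8893, was the closest match of most windows of Serpina1a. It had at most 1 count in any kidney.

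**Figure D1:**
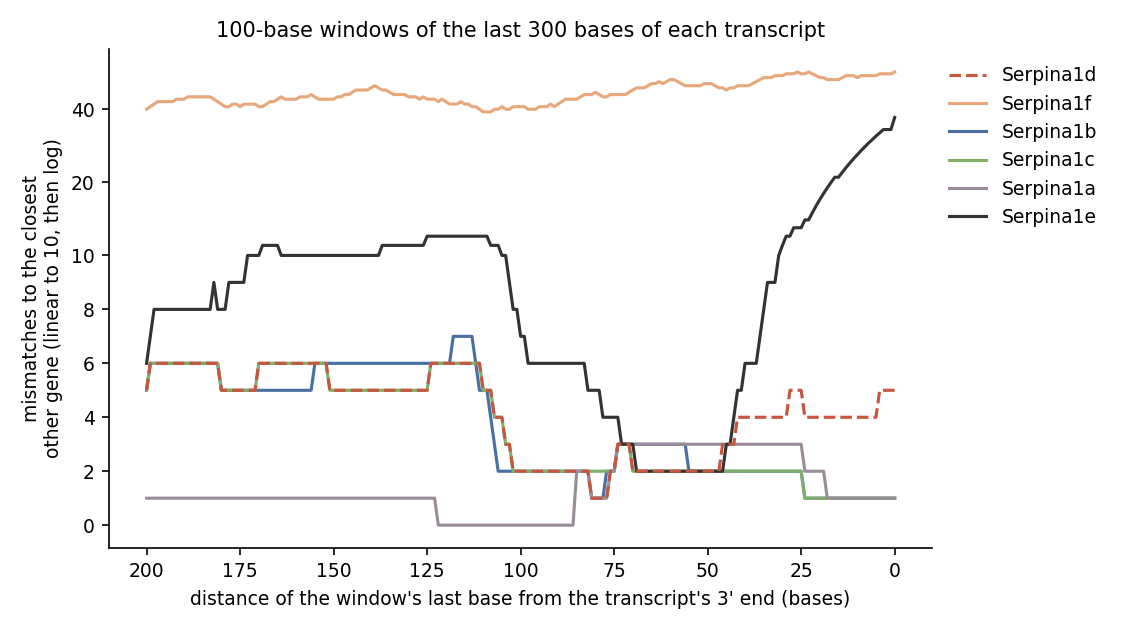
Mismatches (vertical axis, linear to 10 and logarithmic above) of each 100-base window in the last 300 bases of the 6 Serpina1 transcripts. The closest match was sought among the other Serpina1 genes, nearby pseudogenes and genes that share a 50-base window with a copy. Windows are placed by the distance of their last base from the transcript's 3′ end in bases. Serpina1f stays at 39 or more throughout, Serpina1d (dashed) lies between 1 and 6, and Serpina1a reaches 0.

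The libraries held 863605 to 3232063 counts, and the kidneys with the highest Serpina1d, rilmenidine 3 and 4, were the 2 deepest. These 2 libraries and control 6 also stood apart in the level of olfactory and vomeronasal receptor genes. They had 4.27, 7.43 and 8.99 CPM on them against 51.7 to 436 in the other 7. CPM are counts scaled to a common library size, after RLE normalization unless said otherwise. Malat1, a nuclear noncoding RNA, had 288 to 390 CPM in the rilmenidine kidneys, 284 and 371 in controls 6 and 2, and 1200 to 2209 in the other 4 controls. These receptor-gene and Malat1 values were scaled by total counts alone, without RLE normalization. The label kidney was checked against markers. Lrp2, which encodes the tubular uptake receptor megalin, had 1035 or more counts in every library, and Alb, the albumin gene of hepatocytes, had at most 20. Over all genes, 10055 had at least 6 counts in at least 7 of 10 kidneys and were tested with edgeR's quasi-likelihood test. None passed an adjusted p-value of 0.05 between the groups (0.0%, smallest 0.174), while 1061 had an unadjusted p-value under 0.05 (10.6%), and DESeq2 called 60.

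Serpina1d was the most abundant copy in every kidney but controls 2 and 3, and it was several times higher in 3 of the 4 rilmenidine kidneys. It had 25.8, 14.4, 40.7, 49.8, 31.8 and 17.5 CPM in controls 1 to 6. In rilmenidine kidneys 1 to 4 it had 13.9, 127, 441 and 196 CPM. Rilmenidine 2, 3 and 4 lay above every control, whereas rilmenidine 1, with 24 counts, lay below all 6 controls, so that the groups overlapped. The means were 30.0 ± 13.6 (SD, n = 6) and 194 ± 181 CPM (SD, n = 4), and the fitted difference was 2.74 on the log2 scale (standard error 0.55), a 6.67-fold higher level with rilmenidine. The spread among treated kidneys was thus close to their mean. Standard errors of fitted differences, here and below, were calculated back from the F statistic of the fit. They are not a separate measure of the spread among kidneys.

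Serpina1f, whose searched 3′ end shared no window with another gene, showed the same kidneys high. It had 20.2, 4.19, 44.8, 40.1, 16.8 and 9.75 CPM in controls 1 to 6 and 11.6, 76.0, 302 and 139 CPM in rilmenidine kidneys 1 to 4. Again rilmenidine 2, 3 and 4 stood above every control, and rilmenidine 1 lay among the controls, 4 of which were higher. The means were 22.6 ± 16.4 (SD, n = 6) and 132 ± 125 CPM (SD, n = 4), and the fitted log2 difference was 2.63 (standard error 0.61), or 6.20-fold. Of the 10055 genes tested, 2 (0.0199%) had a log2 difference of at least 2.63, and these were Serpina1d and Serpina1f themselves, as the choice of the locus on this comparison leads to. Both were among the 500 genes (4.97%) with at least 3 rilmenidine kidneys above every control.

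**Figure D2:**
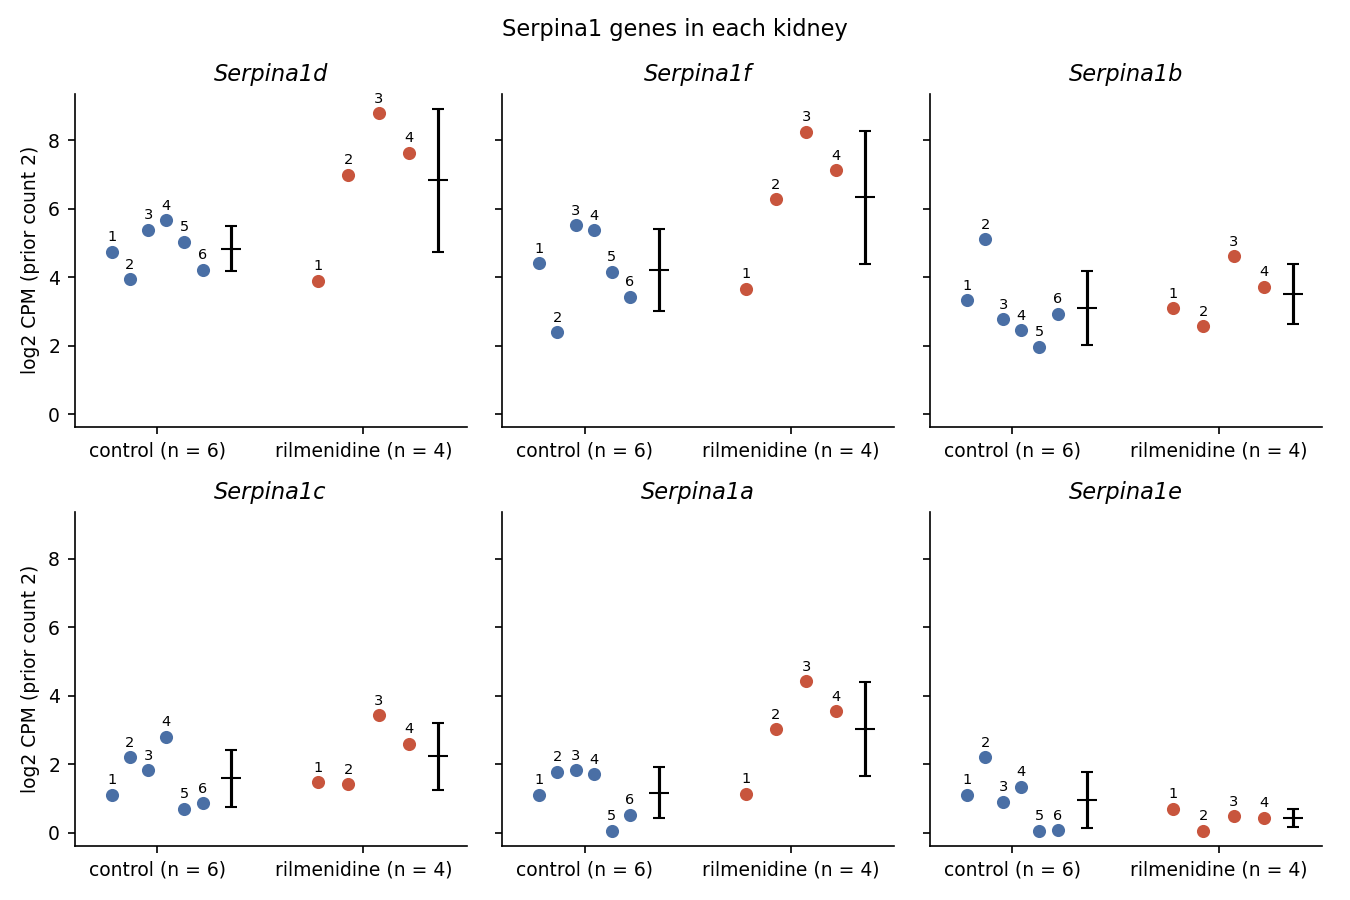
Level of each Serpina1 gene in each kidney, in log2 CPM with a prior count of 2, for control (n = 6) and rilmenidine (n = 4), with replicate numbers beside the points and mean and SD as black bars. Rilmenidine 2, 3 and 4 stand above every control for Serpina1d, Serpina1f and Serpina1a, and control 2 stands above the other controls for Serpina1b.

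Serpina1b behaved otherwise. It had 8.98, 33.6, 5.81, 4.46, 2.89 and 6.63 CPM in controls 1 to 6, and 7.54, 4.89, 23.4 and 12.2 CPM in rilmenidine kidneys 1 to 4. No rilmenidine kidney lay above control 2, which was the highest of all 10, and the ranges overlapped. The fitted log2 difference was 0.24 (standard error 0.55) with means of 10.4 ± 11.5 (SD, n = 6) and 12.01 ± 8.19 CPM (SD, n = 4), so it was smaller than its own error. Without control 2 it was 1.14 (standard error 0.44).

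The remaining copies, Serpina1a, Serpina1c and Serpina1e, failed the filter on low counts and have no fitted value. Serpina1a had 1, 4, 3, 3, 0 and 1 counts in controls 1 to 6 and 2, 13, 58 and 34 counts in rilmenidine kidneys 1 to 4. As for Serpina1d, rilmenidine 2, 3 and 4 were above every control, and the means were 1.44 ± 1.09 (SD, n = 6) and 9.78 ± 8.02 CPM (SD, n = 4). Serpina1c had 1 to 8 counts in the controls and 3, 3, 28 and 16 counts in rilmenidine kidneys 1 to 4. In CPM it was above every control in 1 rilmenidine kidney, the third. Serpina1e, with at most 6 counts in any kidney, was near the limit of detection throughout. It had 10 counts over the 6 controls and 3 over the 4 rilmenidine kidneys. In these low genes a few reads that belong to Serpina1d would change the value.

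Summing the 6 genes gives a level that does not depend on how the counted reads were divided among the copies. Reads left uncounted, or counted for a pseudogene, would be missing from the sum as well. The sum was 58.4, 61.7, 97.1, 104, 52.1 and 35.1 CPM in controls 1 to 6 and 36.5, 216, 797 and 363 CPM in rilmenidine kidneys 1 to 4. The kidneys kept the order seen for Serpina1d at the top, with rilmenidine 3 highest and rilmenidine 1 among the lowest. Mean log2 levels were 6.02 ± 0.58 (SD, n = 6) and 7.79 ± 1.87 (SD, n = 4), a difference of 1.77 on the log2 scale, or 3.41-fold. Without rilmenidine 3 the difference was 1.15, and without rilmenidine 1 it was 2.62. These are differences of mean log2 levels, a measure unlike the fitted differences given for the single genes. By mean log2 level Serpina1d alone stood at 4.83 ± 0.66 in controls (SD, n = 6) and 6.83 ± 2.09 with rilmenidine (SD, n = 4). In bulk tissue, more RNA per cell and more cells of a kind that makes it cannot be told apart.

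Serpina1d and Serpina1f together made up 69.8% to 93.7% of the counts of the locus in 9 kidneys. In control 2 they made up 30.1%, and Serpina1b made up 54.4% (95% Wilson interval 44.8% to 63.7%, 103 counts), against 2.26% to 20.6% elsewhere. The share of Serpina1d in the pair varied little beside the levels. It was 56.1%, 77.4%, 47.6%, 55.4%, 65.5% and 64.3% in controls 1 to 6 and 54.5%, 62.5%, 59.3% and 58.6% in rilmenidine kidneys 1 to 4. The interval was wide where the locus had few counts, 40.1% to 68.3% in rilmenidine 1 with 44 counts, and narrow in rilmenidine 3, 57.2% to 61.4% with 2125 counts. The mean was 61.0 ± 10.4% in controls (SD, n = 6) and 58.7 ± 3.26% with rilmenidine (SD, n = 4), so the groups differed by less than the spread among kidneys. Intervals cover counting error alone.

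**Figure D3:**
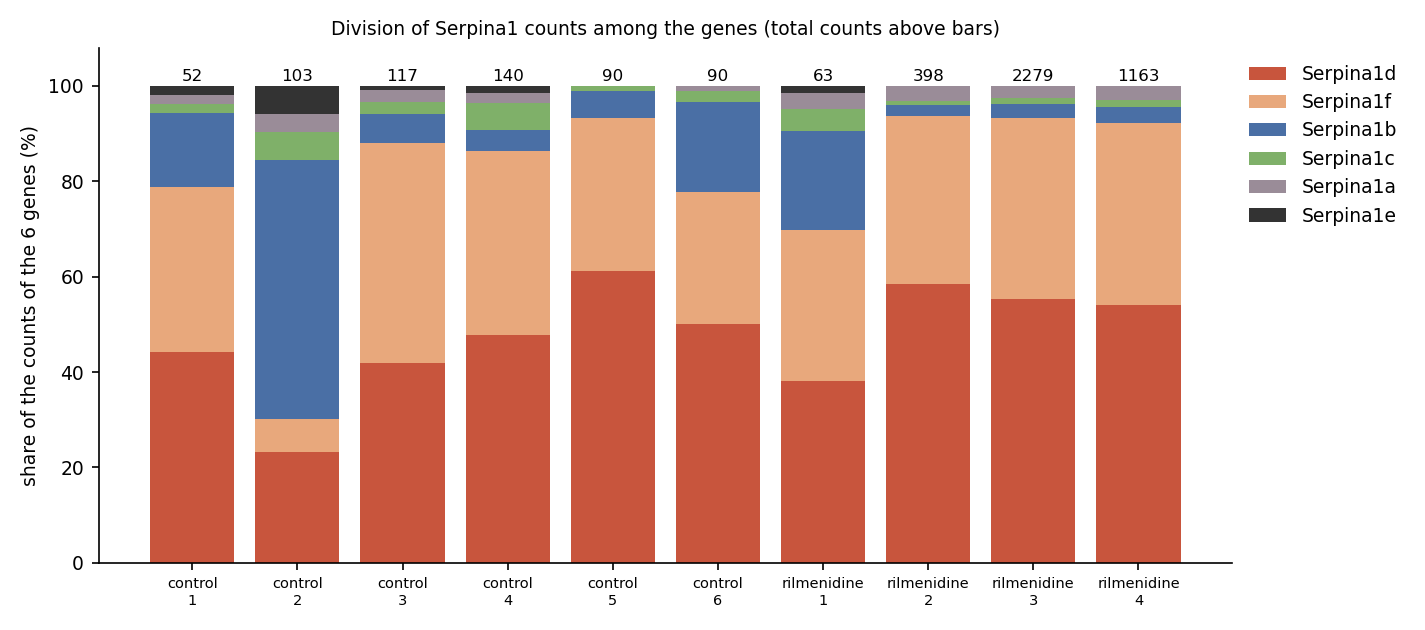
Share of each Serpina1 gene (vertical axis, percent) in the summed counts of the 6 genes in each kidney, with the summed counts above the bars. Serpina1d and Serpina1f take most of the counts in every kidney but control 2, where Serpina1b takes 54.4%, and the 3 high rilmenidine kidneys are divided nearly alike.

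Within the control kidneys, a set that holds no treatment, Serpina1d and Serpina1f varied together. Over 6 kidneys Pearson's r of their log2 CPM was 0.951 (exact permutation p = 0.00972, adjusted 0.0194 over 2 relations), and Spearman's rho was 0.886 (exact permutation p = 0.0333, adjusted 0.0667). Without the 2 kidneys farthest from the median of Serpina1d, r was 0.907 over 4 kidneys. Serpina1d and Serpina1b ran the other way, with r = −0.732 (exact permutation p = 0.0736, n = 6) and rho = −0.771 (exact permutation p = 0.103), and r was −0.370 without the 2 farthest kidneys. The first relation passed for r after adjustment but not for rho, and the second did not pass. Both relations were chosen after the values were seen, and the adjustment over 2 relations does not cover that choice. The relations were not computed within the 5 controls of higher receptor-gene level alone.

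**Figure D4:**
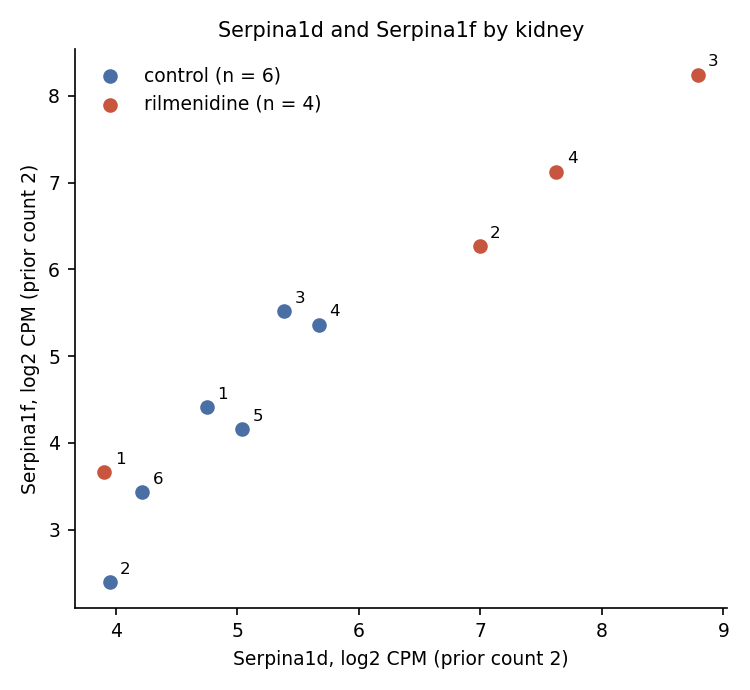
Serpina1d (horizontal axis) against Serpina1f (vertical axis), both in log2 CPM with a prior count of 2, one point per kidney with its replicate number. The control kidneys lie along one line from control 2 to control 4, rilmenidine 1 lies among the lowest of them, and rilmenidine 2, 4 and 3 continue the line upward.

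The levels of the copies were ordered within the control kidneys, a measure that the choice of the locus did not use. By mean CPM the order was Serpina1d at 30.0, Serpina1f at 22.6, Serpina1b at 10.4, Serpina1c at 2.42, Serpina1a at 1.44 and Serpina1e at 1.17. Per kilobase of annotated exon the order was the same, with mean values of 21.5, 7.11, 4.30, 1.78, 0.785 and 0.725 CPM per kb. With RNA captured at the 3′ end, counts need not scale with length, so the values per kb lend the order no weight. Their divisor joins the exons of all annotated transcripts, 3185 bases for Serpina1f and 1394 for Serpina1d. No neighbouring pair in this order passed the test. In two-sided exact sign-flip permutation tests over 6 kidneys the adjusted p-values for the 5 neighbouring pairs were 0.156, 0.273, 0.156, 0.208 and 0.375, where the smallest unadjusted p that 6 kidneys allow is 0.03125, so the test has little room to separate them. Serpina1d was above Serpina1f in 5 of 6 controls by a mean of 0.62 on the log2 scale (SD 0.59). Serpina1f was above Serpina1b in 5 of 6 by 1.11 (SD 2.10), and Serpina1b above Serpina1c in 5 of 6 by 1.51 (SD 1.14). Serpina1c was above Serpina1a in 4 of 6 by 0.42 (SD 0.41), and Serpina1a above Serpina1e in 3 of 6 by 0.22 (SD 0.46).

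The receptor-gene libraries touch the size of the difference between the groups. Of the 7 libraries that had at least 10 CPM of receptor genes, 5 were control and 2 rilmenidine. Among them the fitted log2 difference was 1.12 (standard error 0.53) for Serpina1d, 0.83 (0.61) for Serpina1f and −0.89 (0.77) for Serpina1b. The summed genes differed by 0.31 in mean log2 level. In the 3 other libraries Serpina1d was at 17.5 CPM in control 6 and at 441 and 196 CPM in rilmenidine 3 and 4. Serpina1f was at 9.75 against 302 and 139 CPM. Each side is thin. The 3 libraries hold 1 control, and among the 7 the difference comes from rilmenidine 2, since rilmenidine 1 lay below all 5 controls there for Serpina1d. With log2 Malat1 as a covariate the difference was 3.35 (standard error 0.87) for Serpina1d and 3.59 (0.98) for Serpina1f, and with log2 library size it was 2.13 (0.92) and 2.30 (1.07). Serpina1b turned to −0.64 (0.59) with Malat1 and to −0.49 (0.74) with library size.

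The promoters of the copies differ in the same way as the transcripts. RefSeq windows of 300 bases, from 250 before to 50 after the gene's start, were matched for all 6 genes on GRCm38.p6. They were 91.7% to 98.4% identical among Serpina1a to Serpina1e and 50.4% to 52.4% between Serpina1f and the others. The 250 bases before the start are shown for Serpina1d and Serpina1f, the pair whose levels moved together, 5′ to 3′ on the minus strand, with matches to the searched motifs in capitals.
Serpina1d, chr12:103773634-103773883: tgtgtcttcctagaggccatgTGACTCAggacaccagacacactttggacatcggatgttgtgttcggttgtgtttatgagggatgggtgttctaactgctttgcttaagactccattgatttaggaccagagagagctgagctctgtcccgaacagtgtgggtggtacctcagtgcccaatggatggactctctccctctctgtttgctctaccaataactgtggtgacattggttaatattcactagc
Serpina1f, chr12:103695530-103695779: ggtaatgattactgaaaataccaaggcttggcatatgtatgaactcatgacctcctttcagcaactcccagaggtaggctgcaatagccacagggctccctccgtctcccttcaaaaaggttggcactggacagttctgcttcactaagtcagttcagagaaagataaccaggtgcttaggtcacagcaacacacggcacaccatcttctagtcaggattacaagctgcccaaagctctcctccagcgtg

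The following motifs were searched on both strands of the 300-base windows, none overlapping another in these genes. TGACTCA, bound by AP-1 factors, had 1 match in each of Serpina1a to Serpina1d and 0 in Serpina1e and Serpina1f, although the Serpina1e window begins downstream of where the other copies hold the site, and it occurred in 5.20% of 32851 promoter windows. CAAAGTCCA, bound by hepatocyte nuclear factor 4, occurred in 0.475% of windows and in none of the 6.

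Genes known to act on or with alpha-1 antitrypsin were then examined with edgeR's quasi-likelihood test over all genes, none of which passed adjustment. The unadjusted background is 4.43% of genes higher and 6.13% lower, with a median log2 difference of 0.00. Among regulators of the liver genes, 10 of 17 were tested and 0 had an unadjusted p-value under 0.05 (median −0.08). Hnf4a, a nuclear receptor of liver and proximal tubule, differed by −0.06 on the log2 scale (standard error 0.12).

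Of the serine proteases that serpins can meet, 8 of 15 were tested. Prss8, which encodes the channel-activating protease prostasin, differed by 0.41 (standard error 0.14, unadjusted p = 0.00855, adjusted p = 0.313), at 142 ± 25.2 CPM in controls (SD, n = 6) and 190 ± 15.4 with rilmenidine (SD, n = 4). The median of the 8 was 0.12. Elane, the neutrophil elastase gene that is the classical target of alpha-1 antitrypsin, was at 0 counts in every kidney, as were Ctsg, Prtn3 and Cela3b.

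Other serpins were examined next. Of 62 listed, 9 were tested and 0 had an unadjusted p-value under 0.05 (median 0.05). The smallest p-value was that of Serpinb6a, an intracellular serpin, with a log2 difference of 0.41 (standard error 0.21, adjusted p = 0.524). Of the serpin genes next to the locus, some were nearly silent, with at most 2 counts for Serpina3n, 1 each for Serpina5 and Serpina6, and 7 for Serpina10, while Serpina3a and Serpina3b, added after their values were seen, had up to 27 and 38. Within 500 kb of the locus 2 of 49 annotated genes were tested, Ifi27, an interferon-induced gene, at 0.37 (standard error 0.24, adjusted p = 0.612) and Ddx24, an RNA helicase gene, at −0.05 (0.14, adjusted p = 0.933).

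Acute-phase genes, which inflammation raises in liver together with alpha-1 antitrypsin, were mostly too low in kidney, with 3 of 20 tested. Cp, the ceruloplasmin gene, differed by 0.80 (standard error 0.32, adjusted p = 0.387), with an unadjusted p-value of 0.0238, and the median was 0.02. Of the 14 genes of folding, export and disposal in the endoplasmic reticulum, where misfolded alpha-1 antitrypsin is held back, all were tested. Edem3, which trims sugars of proteins marked for disposal, had a log2 difference of −0.36 (standard error 0.15, adjusted p = 0.400), none was higher at an unadjusted p-value under 0.05, and the median was 0.04. All 7 genes of protein uptake by the tubule were tested, with 0 under 0.05 and a median of 0.11. Lrp2 differed by −0.01 (standard error 0.17), Fcgrt, the neonatal Fc receptor gene, by 0.44 (0.25) and the adaptor gene Dab2 by −0.21 (0.12).

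Markers of cells that could bring in Serpina1 RNA were counted beside these values. Of 16 hepatocyte markers 5 were tested, and 1, Apoh, had an unadjusted p-value under 0.05, with a log2 difference of 0.52 (standard error 0.21, adjusted p = 0.390). The summed level of the list was 473 to 995 CPM in controls and 521 to 907 CPM with rilmenidine, mostly from Ttr. No hepatocyte marker was at 0 in all kidneys, but Alb was at 0, 20, 3, 6, 6 and 11 counts in controls and at 11, 14, 11 and 18 counts in rilmenidine kidneys 1 to 4. Apoh had 43.8, 58.1, 45.6, 45.3, 55.5 and 29.6 CPM in controls and 56.8, 41.8, 88.9 and 74.9 CPM in rilmenidine kidneys 1 to 4, above every control in rilmenidine 3 and 4. The part of hepatocyte RNA in the Serpina1 values was not tested. Control 2, the kidney with the high Serpina1b, had the highest Alb, at 11.98 CPM, and the highest sum, 995 CPM. Whether these belong together was not tested. Of 14 leukocyte markers 5 were tested with 0 under 0.05 (median 0.29), and their sum was 73.0 to 109 CPM in 5 controls, 213 CPM in control 2 and 128 to 157 CPM with rilmenidine. All 4 rilmenidine kidneys thus lay above 5 of the 6 controls, and the median ran from 0.15 without rilmenidine 3 to 0.55 without control 2. Its part in the results was not tested.

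The genes whose levels over the 10 kidneys were most like that of Serpina1d were taken by correlation. Apart from the Serpina1 genes, the 5 tested genes with the highest Pearson's r of log2 CPM were Aqp4, Ddah1, Fam107a, Napsa and Cyp7b1. For comparison, r with Serpina1d was 0.968 for Serpina1f (rho 0.939) and 0.182 for Serpina1b (rho −0.0545). Without the 2 kidneys farthest from the median of Serpina1d, r was 0.918 for Serpina1f and −0.544 for Serpina1b. These are descriptions over 10 kidneys that share libraries and depth, and they largely reflect those 2 kidneys, rilmenidine 3 and 4.

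Aqp4, a water channel gene of the collecting duct and the straight proximal tubule, had r = 0.939 and rho = 0.903, and r = 0.800 without the 2 kidneys. Its level was 12.7 to 27.4 CPM in controls and 11.0, 32.0, 189 and 97.7 CPM in rilmenidine kidneys 1 to 4, so that it was high in the kidneys where Serpina1d was high. Cyp7b1, an oxysterol hydroxylase gene that androgens raise in kidney, had r = 0.903, rho = 0.939 and r = 0.719 without the 2. Its level was 35.9, 25.8, 80.5, 38.6, 28.9 and 16.8 CPM in controls and 9.86, 51.0, 210 and 141 CPM with rilmenidine. Rilmenidine 1 was again the lowest kidney, and rilmenidine 3 and 4 were the highest. Ddah1, which clears an inhibitor of nitric oxide synthesis, had r = 0.927, and 0.776 without the 2, with a far narrower range, 640 to 853 CPM in rilmenidine kidneys and 675 to 726 CPM in controls. Fam107a, an actin-binding protein gene, and Napsa, an aspartic protease gene of tubule lysosomes, had r = 0.911 and 0.904, and 0.699 and 0.657 without the 2 kidneys. Within the 6 controls r was 0.640 for Aqp4, 0.335 for Ddah1, 0.463 for Fam107a, 0.231 for Napsa and 0.703 for Cyp7b1, all below the 0.951 of Serpina1f.

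Cyp7b1 is also 1 of 7 markers listed for the S3 segment, the straight part of the proximal tubule. All 7 were tested, and 3 were higher at an unadjusted p-value under 0.05, none after adjustment, with a median log2 difference of 0.18. Bcat1, a branched-chain amino acid transaminase gene, differed by 1.90 (standard error 0.49, adjusted p = 0.229), with 4 to 13 counts in controls and 9, 35, 117 and 47 counts in rilmenidine kidneys 1 to 4. Cyp7b1 differed by 1.52 (standard error 0.53, adjusted p = 0.321), and Slc22a13, an organic anion transporter gene, by 0.99 (standard error 0.35, adjusted p = 0.321). The other four had no unadjusted p-value under 0.05, and Slc7a13, an amino acid transporter gene typical of S3, named here after its values were seen, differed by −0.10 (standard error 0.23). The summed S3 markers ran from 2059 to 4164 CPM in controls and from 1566 to 3711 CPM with rilmenidine, and those of the S1 and S2 segments from 8550 to 10824 and from 8232 to 10022 CPM (8 of 8 tested, 0 under 0.05, median −0.03). Most of the S3 sum was Atp11a and Slc7a13. Atp11a had means of 1842 CPM in controls and 1374 CPM with rilmenidine, and Slc7a13 of 759 and 704 CPM. Bcat1, Cyp7b1 and Slc22a13, the 3 higher markers, had control means of only 6.06, 37.7 and 53.4 CPM. The sum therefore says little about these 3 genes. The summed level of S3 was lowest of all in rilmenidine 1, the kidney with the lowest Serpina1d. Rilmenidine 2, where Serpina1d was above every control, came next at 1921 CPM, below every control. The highest sum was that of control 3, where Serpina1d was at 40.7 CPM. In those 7 libraries of higher receptor-gene level the S3 median was −0.43 and Cyp7b1 stood at −0.43, and this subset leaves out rilmenidine 3 and 4 and control 6.

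Of 9 androgen-dependent kidney genes, all tested, 1 was higher (Cyp7b1) and 1 lower (Gusb, encoding beta-glucuronidase, −0.68, standard error 0.27, adjusted p = 0.388) at an unadjusted p-value under 0.05, with a median of −0.10. Kap, the kidney androgen-regulated protein gene and the most abundant of the list, differed by 0.26 (standard error 0.18, adjusted p = 0.659). The summed list was at 39768 to 56890 CPM in controls and 43891 to 69438 CPM with rilmenidine. Its highest kidneys were rilmenidine 3 and 4, as for Serpina1d. But rilmenidine 1, the lowest for Serpina1d, was at 50595 CPM, within the range of the controls. Rilmenidine 2, above every control for Serpina1d, was the lowest rilmenidine kidney here, at 43891 CPM. Most of the sum was Kap, with means of 39169 CPM in controls and 46762 CPM with rilmenidine. The part of androgen level or of segment makeup in the Serpina1 values was not tested.

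**Figure D5:**
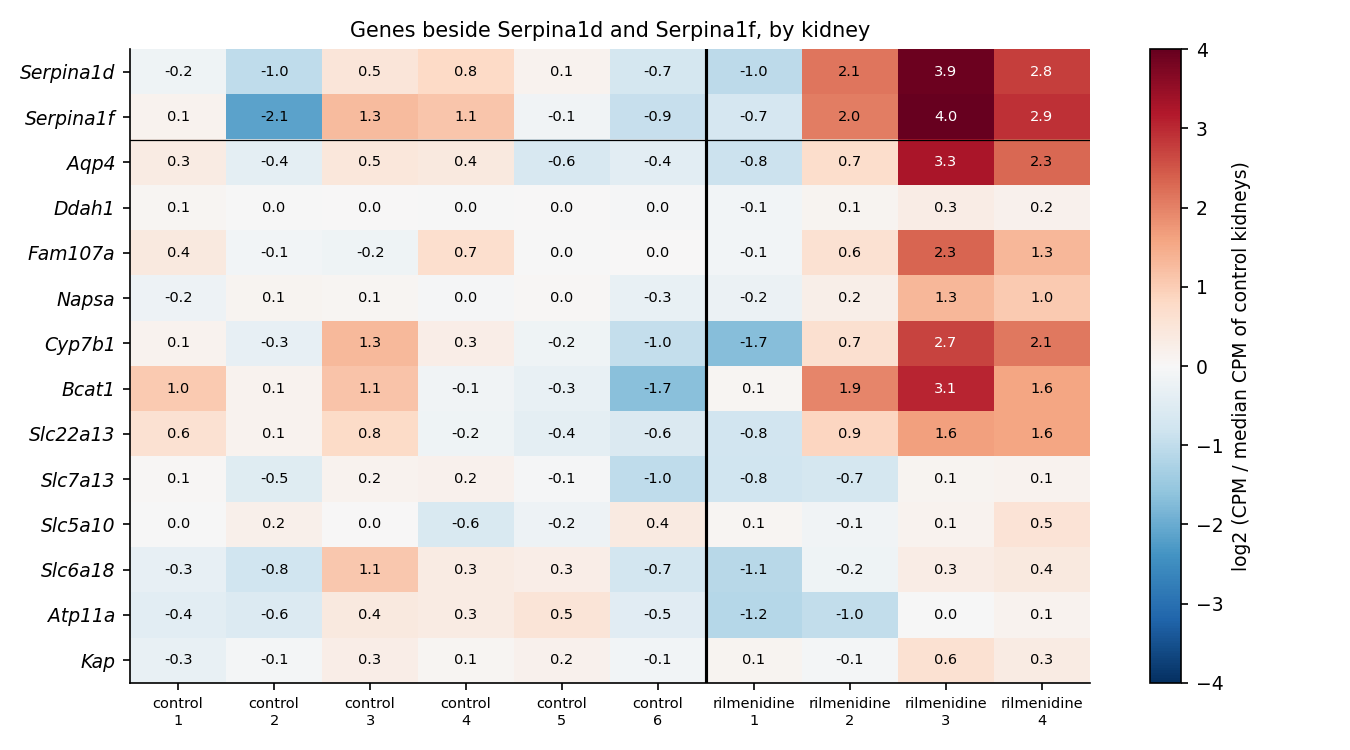
Level of Serpina1d, Serpina1f, the 5 genes most like Serpina1d, the markers of the S3 segment and Kap in each kidney, as the log2 ratio of CPM to the median of the 6 controls (color and printed value). Rilmenidine 2, 3 and 4 lie above the control median for Serpina1d, Serpina1f, the 5 genes most like Serpina1d, Bcat1 and Slc22a13. For Slc7a13, Slc5a10, Slc6a18, Atp11a and Kap rilmenidine 2 lies below it, although rilmenidine 3 and 4 lie above rilmenidine 1 there too.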

How the data were processed

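RNA-seq was performed on kidneys of UM-HET3 males, of which 10 are analysed here. The study's supplement names more control kidneys than the 6 used. The labels cite a 3′ end protocol with molecular identifiers, and the extraction text names liver where all other labels say kidney. Per the labels and methods, the authors trimmed reads with Trimmomatic (0.32), mapped them to mm10 with STAR (2.5.2b) and counted them with featureCounts (1.5), and they deposited raw counts per Ensembl gene. Annotation release, strand, collapsing of identifiers and multiply mapped reads are not given in the sources used here, so counts may hold amplification copies. Paralog, overlapping and antisense counts are uncertain.

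Of 43629 genes, 42462 received a symbol from GENCODE M21. Genes with at least 6 counts in at least 7 of 10 kidneys were kept, normalized by RLE and fitted without covariates in edgeR 4.0.16 (R 4.3.3), with Benjamini-Hochberg adjustment over all 10055 genes. Log2 CPM used a prior count of 2. The fit was tested on simulated data. Single relations were tested by exact permutation in scipy 1.17.1, and identity was computed by global alignment in biopython 1.88. Libraries differed by more than sampling noise in every pair. Shares carry 95% Wilson intervals.

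The members and gene lists were chosen with earlier results of these data known. Named genes were the 6 members, up to 4 genes of smallest p per functional list, 10 further genes fixed by name and the 5 genes most like Serpina1d, less a few left out here. Alternatives were TMM, other filters, DESeq2 1.42.0, the likelihood ratio test, covariates (library size, Malat1), the replicate number as a block, 7 libraries alone and leaving out each kidney.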

Additional observations from a re-analysis of the deposited data

Results flagged for a closer look

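Among 42 groups of control or rilmenidine values examined for a kidney far from the rest of its group, 3 had one, and chance alone gives about 1 in 20. All 3 concern control 2. Serpina1b was at 33.6 CPM there, against 2.89 to 8.98 CPM in the other 5 controls. The summed leukocyte markers were at 213 CPM in that kidney, against 73.0 to 109 CPM in the others. The summed genes of protein uptake were at 1719 CPM, against 2124 to 2365 CPM. The same kidney had the lowest Serpina1f of all 10, 4.19 CPM, and low Malat1 for a control, 371 CPM.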

How the results depend on the processing

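The log2 differences of Serpina1d and Serpina1f were above 0 under every alternative in which they were tested. Serpina1f, with 7 counts in control 2, was not tested where 10 counts were required in every kidney. Leaving out each kidney in turn gave fitted differences of 1.95 to 3.12 for Serpina1d, 1.84 to 3.01 for Serpina1f and −0.31 to 1.14 for Serpina1b. The summed genes, compared by mean log2 level, differed by 1.15 to 2.62. The lowest values of all 4 came without rilmenidine 3, and the highest without rilmenidine 1, or for Serpina1b without control 2. In the 7 libraries with at least 10 CPM on receptor genes they were 1.12, 0.83, −0.89 and 0.31. The number of genes called was 0, but 241 of 27565 with 1 count in any kidney as the filter (64 higher, 177 lower), 60 with DESeq2, 44 with the likelihood ratio test, and 0 to 33 on leaving out a kidney (32 without control 2, 33 without control 6, 6 without rilmenidine 1). Shallow libraries limit Serpina1a, Serpina1c and Serpina1e most.

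With the replicate number as a block 3 genes passed, and the log2 difference was 2.23 for Serpina1d, 2.13 for Serpina1f and 0.05 for Serpina1b. The numbers are not said to pair mice: deviations of same-numbered kidneys correlated at −0.0768 to 0.0775, and 0 of 4 rilmenidine kidneys correlated best with the control of its own number.

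Of 228 list medians under alternatives, 219 moved by less than the spread between kidneys. With Malat1 as a covariate the median was −0.26 for other serpins, −0.081 for serine proteases and 0.13 for transcription regulators. With at least 1 count it was −0.57 for neighbours and 0.33 for hepatocyte markers. In the 7 libraries it was 0.26 for serine proteases, −0.085 for uptake genes, −0.43 for S3 markers and −0.73 for androgen-dependent genes. Single genes changed sign as follows. Serpina1b was at −0.64 with the Malat1 covariate and −0.49 with library size. In the 7 libraries Cp was at −0.33, Apoh at −0.023, Cyp7b1 at −0.43, Kap at −0.022 and Ddah1 at −0.010. With the Malat1 covariate Hnf4a was at 0.011, Lrp2 at 0.076, Alb at −0.29, Slc7a13 at 0.44 and Atp11a at 0.093. Slc7a13 was at 0.045 with library size as covariate, and Lrp2 at 0.011 under the block. On leaving out a kidney Lrp2 ran from −0.094 to 0.13, Slc7a13 from −0.26 to 0.039 and Ddx24 from −0.14 to 0.040. The causes were not tested.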

Other observations

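A pair of serpins next to the Serpina1 genes, Serpina3a and Serpina3b, had counts in some kidneys but failed the filter, and they are named after their values were seen. Serpina3b had 29, 38, 13, 2, 0 and 38 counts in controls 1 to 6 and 21, 1, 2 and 0 counts in rilmenidine kidneys 1 to 4. Serpina3a had 11, 27, 5, 0, 0 and 21 counts in the controls and 4, 1, 2 and 1 counts with rilmenidine. In both genes rilmenidine 2, 3 and 4, the kidneys with the highest Serpina1d, had at most 2 counts. Controls 4 and 5 were at or near 0 as well, so the groups overlapped, and neither difference was tested.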
